A study of Mus musculus with 6 samples.

Results

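The genes described here are 33 genes that mark astrocytes or their reactive state, taken by name from a list. That list was chosen with earlier results of these data known. All 33 are among the 53640 gene symbols shared by the 6 count tables of a mouse brain RNA sequencing study, and 32 passed the filter on low counts, as did 20694 genes in all. The exception was Steap4, a metalloreductase gene used as a marker of reactive astrocytes, which had 6 and 6 counts in the treated tau libraries, 4 and 2 in the tau libraries and 10 and 6 in the control libraries. Tissue that the labels call PFC, as a bulk lysate, came from mice aged 6 months, with 2 libraries, described as biological duplicates, in each of 3 groups. Treated tau mice had the genotype PS19(P301S) and received WDR5-0103, which binds the WDR5 protein. Tau mice had the same genotype and received vehicle. Control mice were (C57BL/6 x C3H) and also received vehicle. PS19 mice carry a mutant human tau transgene driven by the mouse prion promoter, and WDR5 is a shared subunit of the enzyme complexes that methylate histone H3 at K4.

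Astrocytes clear glutamate and potassium from around synapses, convert glutamate to glutamine, couple to one another through gap junctions and surround vessels with endfeet that hold water channels. After injury and in neurodegeneration they become reactive, with more of the intermediate filament proteins encoded by Gfap and Vim and more of several secreted and surface proteins. Reactive astrocytes are a known feature of mouse lines that express mutant tau. In cortex the identity genes are expressed by nearly all astrocytes, whereas Gfap is low in most grey matter astrocytes and higher near white matter and the brain surface.

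Library totals ran from 17690811 counts in tau 2 to 34774643 in treated tau 1. Several libraries stood apart in ways that touch the astrocyte genes. Prnp, whose sequence is part of the transgene vector, was at 1876 and 1594 CPM (read counts as a share of the library, scaled by TMM) in treated tau, 1684 and 1472 in tau, and 1654 and 876.1 in control. The library labelled control 1 was therefore at the level of the PS19 libraries, against its label, and several of the differences from control below are also given without it. Summed markers of olfactory bulb neurons were 152.3 CPM in the library labelled control 1 and between 37.31 and 44.51 CPM in the other 5 libraries. Oligodendrocyte markers summed to 5949 CPM in tau 2 and 1585 CPM in control 2, with 2642 to 3179 CPM elsewhere, and striatal neuron markers to 513.5 CPM in tau 2 and 297.8 to 354.9 CPM elsewhere. Treated tau had Xist at 2.43 and 1.75 CPM and Y-linked Ddx3y at 107.9 and 91.2 CPM, whereas tau had Xist at 186 and 235.2 CPM and Ddx3y at 0.391 and 0.115 CPM, so treatment and sex cannot be told apart in that comparison. In control, Xist was at 0.197 CPM and Ddx3y at 95.2 CPM in the library labelled control 1, while control 2 had 317.8 and 0.314 CPM of them, so the comparisons with control mix sexes too. The treated tau tables also list another set of gene symbols than the other 4. With 2 libraries a group, p-values rest on the spread between duplicates pooled over the 3 groups, drawn toward that of other genes.

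Defining astrocyte markers were plainly present in all 6 libraries, as the label of a bulk brain lysate allows. Slc1a2, the main glutamate transporter of forebrain astrocytes, was at 3183 and 3531 CPM in treated tau, 3406 and 3107 CPM in tau, and 3051 and 3504 CPM in control. All 3 groups overlapped. Ranked by mean CPM per kilobase of exon, Sparcl1 stood at 717, with library values of 656.4 to 758.3, and did not overlap with Glul at 483, which did not overlap with Slc1a2 at 251. Slc1a2 in turn lay above Aldoc at 202, and Aldoc and Ndrg2, at 159, overlapped. S100b, Slc1a3 and Gpr37l1 followed at 81.0, 71.2 and 69.6 CPM per kilobase, where S100b overlapped with Slc1a3 and Slc1a3 with Gpr37l1. A long middle stretch followed from Bcan at 26.3 to Hepacam at 9.92 CPM per kilobase, where every gene overlapped with its neighbour. Gfap ranked 17 of 32 at 16.1 CPM per kilobase, with a range of 11.8 to 26.5. Apart from S1pr1 at 50.5, the other reactive genes lay low, from Serpina3n at 6.58 and Vim at 5.03 to Cd44 at 0.705, Osmr at 0.418 and Timp1 at 0.404 CPM per kilobase.

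**Figure D1:**
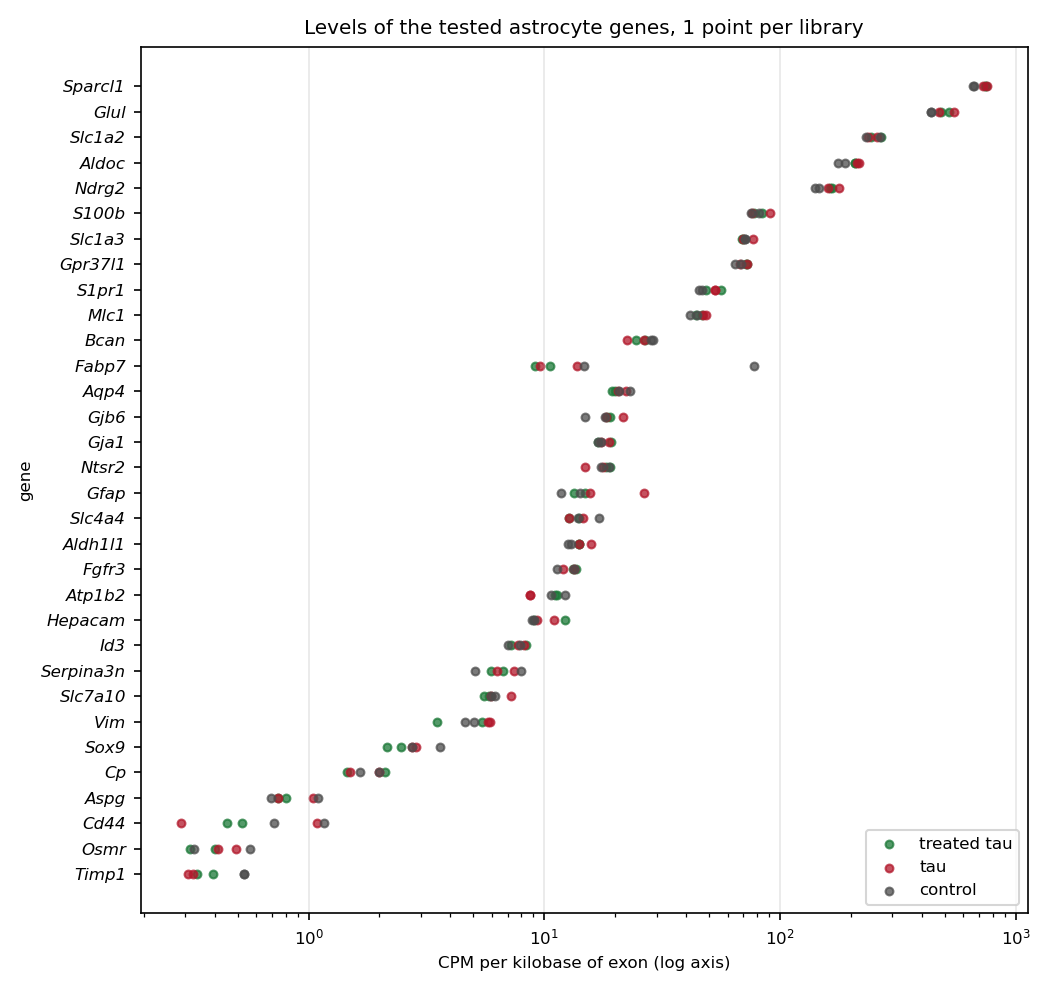
Level of each of the 32 tested astrocyte genes in CPM per kilobase of exon (log axis), 1 point per library, coloured by group and ordered by the mean. Sparcl1 at 717 and Timp1 at 0.404 CPM per kilobase are the ends of the scale, and Fabp7 in the library labelled control 1 and Gfap in tau 2 lie apart from the other points of their rows.

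The median range over the 6 libraries was 0.359 log2 CPM for the 32 astrocyte genes and 0.563 for all 20694 genes, whose median average level was also lower, at 3.26 against 6.03 log2 CPM. Slc1a3, the glutamate transporter also found in radial glia and cerebellar Bergmann glia, had the narrowest range of the 32, at 0.16 log2 CPM. Fabp7, Cd44 and Gfap had the widest, at 3.08, 1.97 and 1.17 log2 CPM. Summed CPM over the genes was 10630 and 10760 in treated tau, 10710 and 10740 in tau, and 9849 and 10220 in control. By this sum, in which the highest genes weigh most, the 4 PS19 libraries lay above both control libraries. The median log2 deviation of the 32 genes from their mean over the 6 libraries did not separate them. It was -0.057 in treated tau 2 and -0.018 in the library labelled control 1. In bulk tissue, the number of astrocytes and the RNA per astrocyte cannot be told apart.

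**Figure D2:**
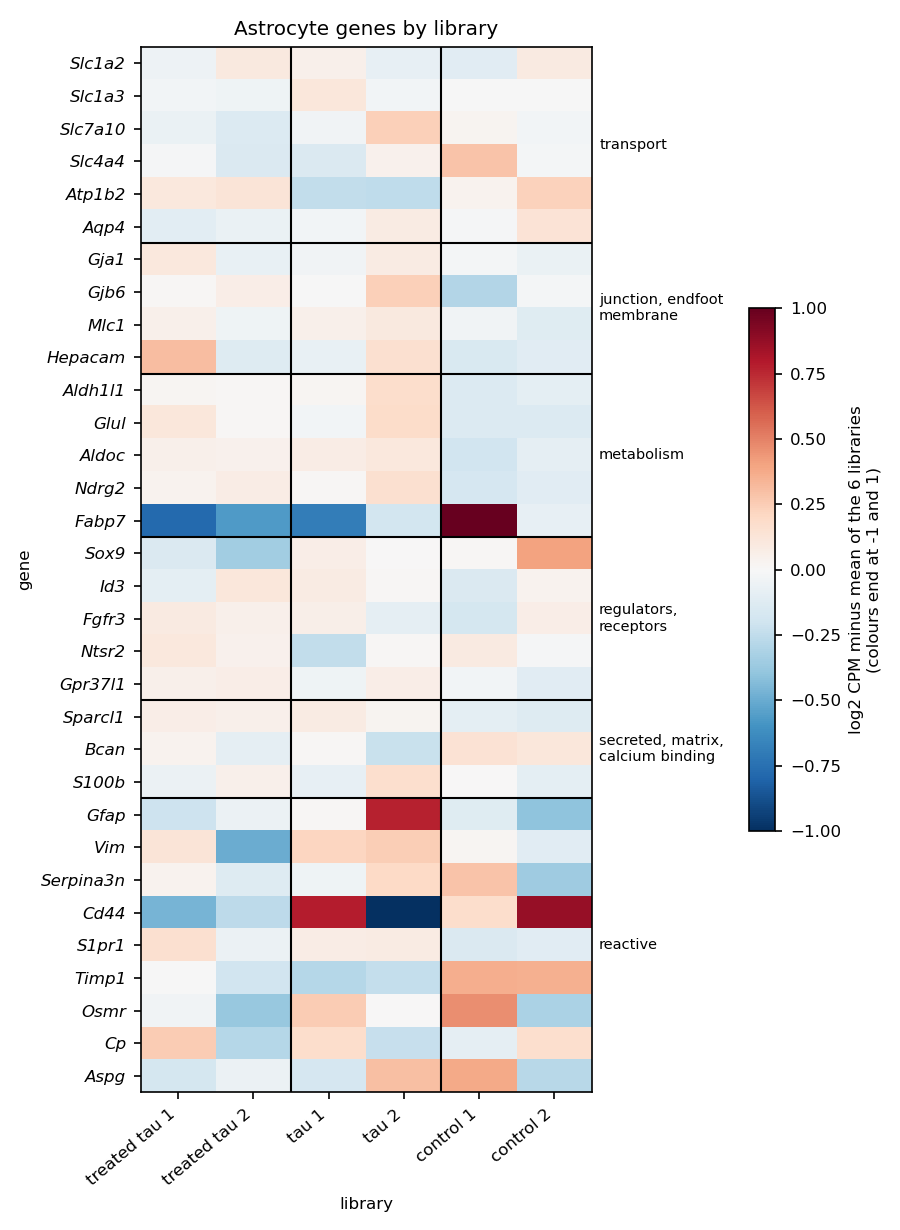
Log2 CPM of each tested astrocyte gene minus its mean over the 6 libraries (colour), by library (columns, treated tau, tau and control from left to right) and by role (rows). Most cells are pale, and every deviation beyond 0.6 in either direction belongs to Fabp7, high in the library labelled control 1 and low in treated tau 1 and tau 1, to Gfap, high in tau 2, or to Cd44, high in tau 1 and control 2 and low in tau 2.

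RefSeq start windows (GRCm38.p6, 250 bases before to 50 after a start) were found for 28 of the 33 genes, 34 windows in all. WDR5 complexes methylate H3 at promoters, many of which are rich in the dinucleotide CG, so 3 windows are shown, with every CG in capitals. Gfap (chr11:102897151-102897450, minus strand) is the standard marker of reactivity, Fabp7 (chr10:57784673-57784972, plus strand) had the widest range and Slc1a3 (chr15:8710758-8711057, minus strand) the narrowest.
Gfap: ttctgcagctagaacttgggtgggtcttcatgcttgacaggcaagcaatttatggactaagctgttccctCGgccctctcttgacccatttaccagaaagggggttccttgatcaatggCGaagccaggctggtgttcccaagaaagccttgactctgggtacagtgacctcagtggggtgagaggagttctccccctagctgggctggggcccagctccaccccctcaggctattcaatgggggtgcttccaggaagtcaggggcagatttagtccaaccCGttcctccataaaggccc
Fabp7: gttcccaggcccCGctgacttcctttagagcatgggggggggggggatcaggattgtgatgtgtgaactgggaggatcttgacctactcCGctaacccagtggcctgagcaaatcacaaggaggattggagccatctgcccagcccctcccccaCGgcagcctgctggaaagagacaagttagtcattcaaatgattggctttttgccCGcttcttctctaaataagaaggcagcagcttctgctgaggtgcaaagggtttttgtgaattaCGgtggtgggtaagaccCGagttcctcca
Slc1a3: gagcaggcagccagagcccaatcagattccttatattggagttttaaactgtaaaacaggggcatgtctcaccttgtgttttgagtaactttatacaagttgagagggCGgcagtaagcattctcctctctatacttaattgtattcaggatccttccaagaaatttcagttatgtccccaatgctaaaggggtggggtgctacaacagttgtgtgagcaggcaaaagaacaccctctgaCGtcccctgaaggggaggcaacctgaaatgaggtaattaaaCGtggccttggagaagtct
The windows hold 3, 6 and 3 CG in the order printed, against a median of 7.5 over the 34 astrocyte windows and 7 over 32851 windows of all genes. The Slc4a4 window with 50 CG and the Slc1a2 window with 1 are the ends of the range. A STAT-type motif, TTCNNNGAA, which reads the same on both strands, was present in 5 of the 34 windows, or 14.7%, and in 8.3% of all windows. In Gfap it is TTCCAGGAA, beginning 2 bases before the start, and in Slc1a3 it is TTCCAAGAA, beginning 96 bases before. The other 3 windows belong to Aldoc, Ntsr2 and Steap4. A match is a stretch of letters, and no binding was measured.

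No astrocyte gene passed an adjusted p of 0.05 in any of the 3 comparisons by edgeR's quasi-likelihood test. Between treated tau and tau the counts were 0 of 32 astrocyte genes, beside 779 of 20694 genes, or 3.76%, of which 639 (3.09%) were higher and 140 (0.677%) lower in treated tau. The astrocyte genes all code for protein, and in a fit of 14739 protein-coding genes the called genes numbered 45, or 0.305%, with 23 higher and 22 lower. For treated tau against control, 0 of 32 were called, beside 873 genes, or 4.22% (687 or 3.32% higher and 186 or 0.899% lower), and 40 protein-coding genes, or 0.271% (24 higher and 16 lower), in the fit of protein-coding genes alone. In tau against control, 0 of 32 and 0 of 20694 genes, or 0%, were called. DESeq2 and limma-voom called 0 astrocyte genes in each comparison, though DESeq2 gave an adjusted p to only 22 of the 32 in tau against control, where it called 55 genes of any kind and limma-voom 0.

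At an unadjusted p under 0.05 the comparisons differed in number. Between treated tau and tau, 2 of 32 astrocyte genes (6.25%) were past it, beside 12% of all genes: Atp1b2, higher (beside 7.52% of all genes), and Gfap, lower (beside 4.44%). Between treated tau and control, 6 of 32 (18.8%) were past it, beside 16.3% of all genes: Glul, Aldoc, Ndrg2 and Sparcl1, higher (beside 8.17%), and Fabp7 and Sox9, lower (beside 8.09%). Between tau and control, 10 of 32 (31.2%) were past it, beside 9.95% of all genes. Of these, Aldh1l1, Glul, Aldoc, Ndrg2, Sparcl1, Gfap and S1pr1 were higher in tau (beside 4.31% of all genes), and Atp1b2, Fabp7 and Bcan lower (beside 5.64%). High expression makes small shifts easier to detect, so shares among genes with an average of at least 4 log2 CPM are also given. In treated tau against tau it was 2 of 24 astrocyte genes (8.33%), beside 11.6% of 8688 genes. For treated tau against control it was 5 of 24 (20.8%), beside 12.2%, and for tau against control 10 of 24 (41.7%), beside 12.5%. Without the library labelled control 1 the count in tau against control was 7 of 32, beside 10.7% of all genes, and without both it and tau 2 it was 4 of 32, beside 11.3%. The last 2 comparisons share the control libraries, so their counts are not independent of each other. The genes were chosen with earlier results of these data known, so their shares beside all genes are no independent test.

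The median log2 fold change of the 32 genes was -0.043 in treated tau against tau, 0.036 in treated tau against control and 0.071 in tau against control, and over all genes it was -0.0060, -0.0068 and -0.0030. Most intervals were narrow. Of the 95% intervals in treated tau against tau, 21 of 32 lay within 0.5 of zero on the log2 scale and 28 within 1, in treated tau against control 24 and 29, and in tau against control 20 and 28. Libraries of the groups did not overlap for 11 of 32 genes in treated tau against tau (34.4%, beside 41.3% of all genes), 3 higher (beside 21.2%) and 8 lower (beside 20.1%). For treated tau against control they did not overlap for 16 (50%, beside 46.3%), 8 higher (beside 23%) and 8 lower (beside 23.3%). For tau against control the number was 15 (46.9%, beside 41.6%), 11 higher (beside 20.3%) and 4 lower (beside 21.3%).

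**Figure D3:**
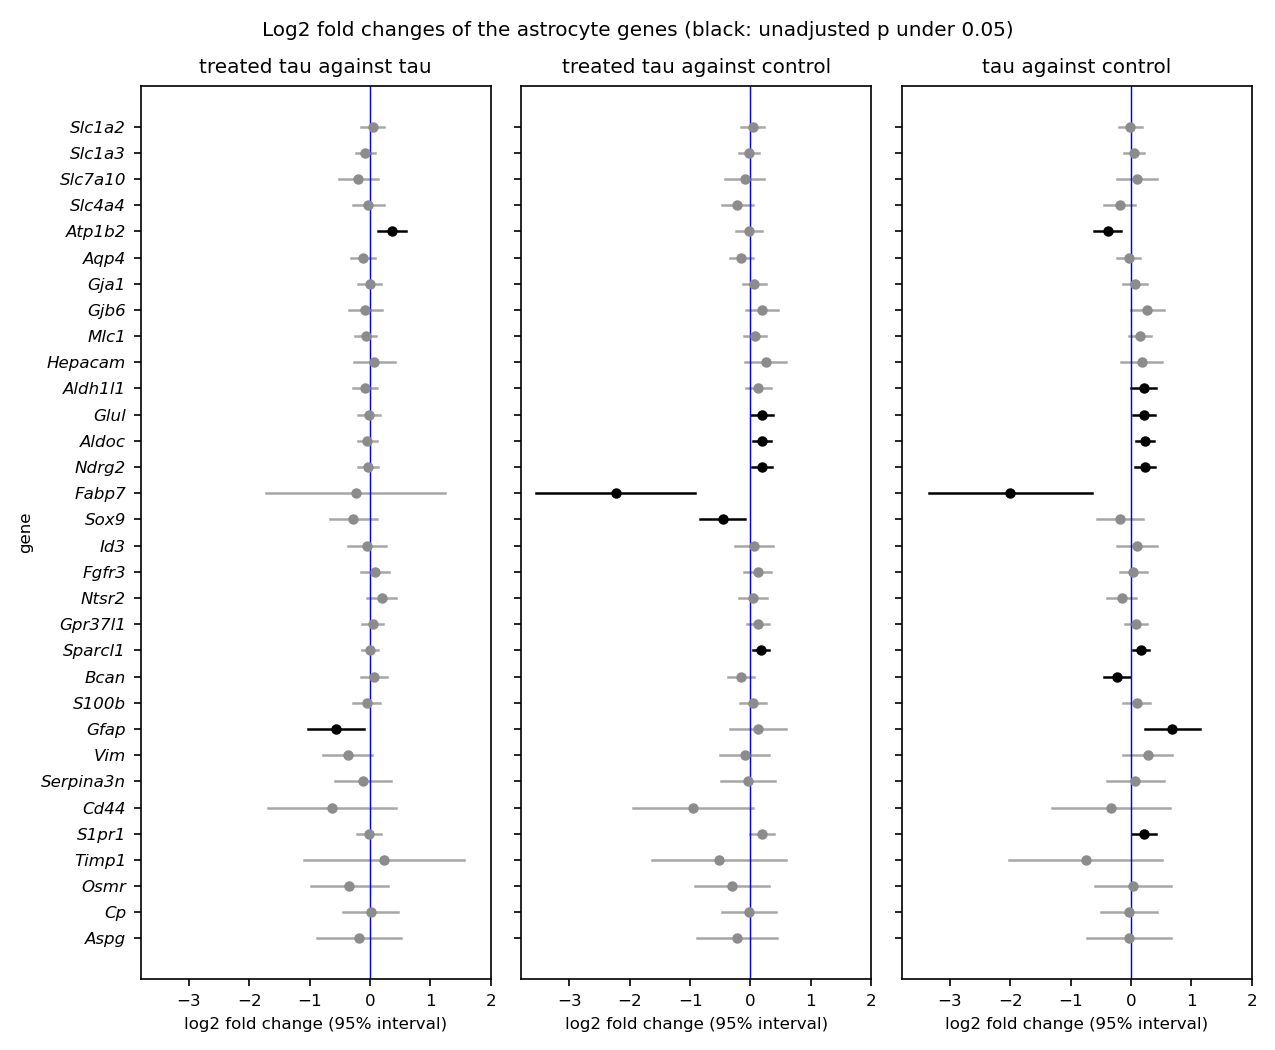
Log2 fold change (point) and its 95% interval (line) of each tested astrocyte gene in the 3 comparisons, from edgeR's quasi-likelihood fit. Black marks an unadjusted p under 0.05, which 2, 6 and 10 genes reach from the left panel to the right, and no gene has an adjusted p under 0.05.

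Among the 6 transport genes, Atp1b2 had the widest difference between tau and the other groups, and the glutamate transporters and the water channel stayed within narrow limits. Atp1b2 (mm10 chr11:69599736-69605942, minus strand) encodes a beta subunit of the sodium-potassium ATPase that is abundant in glia. It was at 45.5 and 46.3 CPM in treated tau, 35.7 and 35.6 CPM in tau, and 43.5 and 49.8 CPM in control. Both tau libraries lay below the other 4. Its log2 fold change was 0.36 ± 0.10 (SE, adjusted p = 0.111) in treated tau against tau and -0.39 ± 0.10 (adjusted p = 0.441) in tau against control. Without the library labelled control 1 the second value was -0.48, and without both it and tau 2 it was -0.48 as well. These differences rest on the same 2 tau libraries.

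For Slc1a2 the log2 fold change was 0.044 ± 0.086 in treated tau against tau (adjusted p = 0.927), 0.035 ± 0.086 in treated tau against control (adjusted p = 0.888) and -0.0093 ± 0.086 in tau against control (adjusted p = 0.983), with 95% intervals that stayed between -0.20 and 0.24. Slc1a3 was at 597.6 and 589.2 CPM in treated tau, 657.2 and 594.7 CPM in tau, and 604.6 and 604.4 CPM in control. Tau 1 was the one high library. Its 3 log2 fold changes in the same order were -0.077 ± 0.071 (adjusted p = 0.785), -0.027 ± 0.071 (adjusted p = 0.896) and 0.051 ± 0.071 (adjusted p = 0.826). Aqp4, the water channel of astrocyte endfeet, was at 121 and 124 CPM in treated tau, 128 and 139 CPM in tau, and 129 and 144 CPM in control. The treated tau libraries lay below the other 4, with a log2 fold change of -0.12 ± 0.086 against tau (adjusted p = 0.710) and -0.15 ± 0.086 against control (adjusted p = 0.428), and tau against control was at -0.037 ± 0.086 (adjusted p = 0.905).

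Slc4a4, a sodium bicarbonate cotransporter, was at 151 and 138 CPM in treated tau, 138 and 157 CPM in tau, and 185 and 150 CPM in control, where the library labelled control 1 was the high one. Slc7a10, a neutral amino acid exchanger, was between 11.7 and 15.2 CPM in the 6 libraries. Its value is uncertain, since 12.9% of its exonic 50-base words also occur in other genes. The most frequent of these is Lrp3, an overlapping gene on the opposite strand, and whether counting used strand is not known from the labels.

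The 4 junction and endfoot genes all had positive log2 fold changes in tau and in treated tau against control, from 0.070 to 0.27 and from 0.066 to 0.25, and none was past an unadjusted p of 0.05. Gja1, which encodes the main astrocyte connexin, was at 196 and 173 CPM in treated tau, 178 and 193 CPM in tau, and 179 and 174 CPM in control. The groups overlapped, and the log2 fold changes were -0.0032 ± 0.087 in treated tau against tau (adjusted p = 0.998), 0.066 ± 0.087 in treated tau against control (adjusted p = 0.768) and 0.070 ± 0.087 in tau against control (adjusted p = 0.795). Gjb6, the other large astrocyte connexin gene, was at 49.3 and 51.0 CPM in treated tau, 48.7 and 57.5 CPM in tau, and 39.8 and 48.2 CPM in control. All 4 PS19 libraries lay above both control libraries, by a narrow margin over control 2. Mlc1 and Hepacam encode membrane proteins that bind each other at endfeet and junctions. Mlc1 was between 117 and 136 CPM in the 6 libraries, and Hepacam was at 40.9 and 30.2 CPM in treated tau, 31.3 and 36.9 CPM in tau, and 29.6 and 30.4 CPM in control.

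In the metabolic group the PS19 libraries, treated or not, lay above control for 4 of 5 genes, and the fifth, Fabp7, lay below. Of all genes, 23% lay above control without overlap in treated tau and 20.3% in tau, and 23.3% and 21.3% lay below. The same control libraries serve both comparisons. Glul, glutamine synthetase, was at 1725 and 1607 CPM in treated tau, 1564 and 1820 CPM in tau, and 1451 and 1455 CPM in control. Aldoc (mm10 chr11:78322968-78327781, plus strand), the brain form of the glycolytic enzyme aldolase, was at 682.5 and 679.5 CPM in treated tau, 692 and 709.4 CPM in tau, and 576.2 and 618.2 CPM in control. Ndrg2, a cytoplasmic protein gene of the NDRG family used as an astrocyte marker, was at 553.6 and 567.5 CPM in treated tau, 543.1 and 604.1 CPM in tau, and 479.1 and 499.1 CPM in control. For these 3 genes no treated tau or tau library overlapped with a control library, while treated tau and tau overlapped for Glul and Ndrg2. Aldh1l1, a folate enzyme widely used to label astrocytes, was at 63.7 and 63.3 CPM in treated tau, 63.5 and 71.0 CPM in tau, and 57.1 and 58.7 CPM in control, again with all 4 PS19 libraries above control.

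Against control, the log2 fold changes of Aldoc were 0.19 ± 0.067 in treated tau (adjusted p = 0.193) and 0.23 ± 0.068 in tau (adjusted p = 0.441). Those of Ndrg2 were 0.20 ± 0.074 in treated tau (adjusted p = 0.221) and 0.23 ± 0.075 in tau (adjusted p = 0.441). Those of Glul were 0.20 ± 0.081 in treated tau (adjusted p = 0.260) and 0.22 ± 0.081 in tau (adjusted p = 0.452), and in treated tau against tau it was at -0.022 ± 0.081 (adjusted p = 0.965). Without the library labelled control 1, tau against control gave 0.18 for Aldoc, 0.20 for Ndrg2 and 0.22 for Glul. Without it and tau 2 the same genes were at 0.17, 0.12 and 0.11. Of the exonic 50-base words of Glul, 12.6% also occur in other genes, most often in the pseudogene Glns-ps1. For Aldh1l1 the share is 10.02%, most often in Gm15756, on the opposite strand. The values of both are uncertain, by an amount that was not measured.

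Fabp7, a fatty acid binding protein of radial glia and astrocytes that is also strong in the glia of the olfactory system, was at 11.4 and 13.2 CPM in treated tau, 12.045 and 17.3 CPM in tau, and 96.7 and 18.4 CPM in control. One library, that labelled control 1, stood far above the other 5. The log2 fold change was -2.23 ± 0.59 in treated tau against control (adjusted p = 0.0739) and -1.998 ± 0.60 in tau against control (adjusted p = 0.441). Without the library labelled control 1 these were -0.59 (adjusted p = 0.241) and -0.35 (adjusted p = 0.578). Without control 2 they were -2.98 (adjusted p = 2.18e-05) and -2.75 (adjusted p = 8.04e-05), the calls then resting on the 1 control library whose Prnp goes against its label. Of the defining olfactory bulb markers, Cdhr1 was at 56.9 CPM and Th at 27.7 CPM in that library, against 2.31 to 4.26 CPM and 0.820 to 2.27 CPM in the other 5, and the part of such tissue in the Fabp7 value was not tested.

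**Figure D4:**
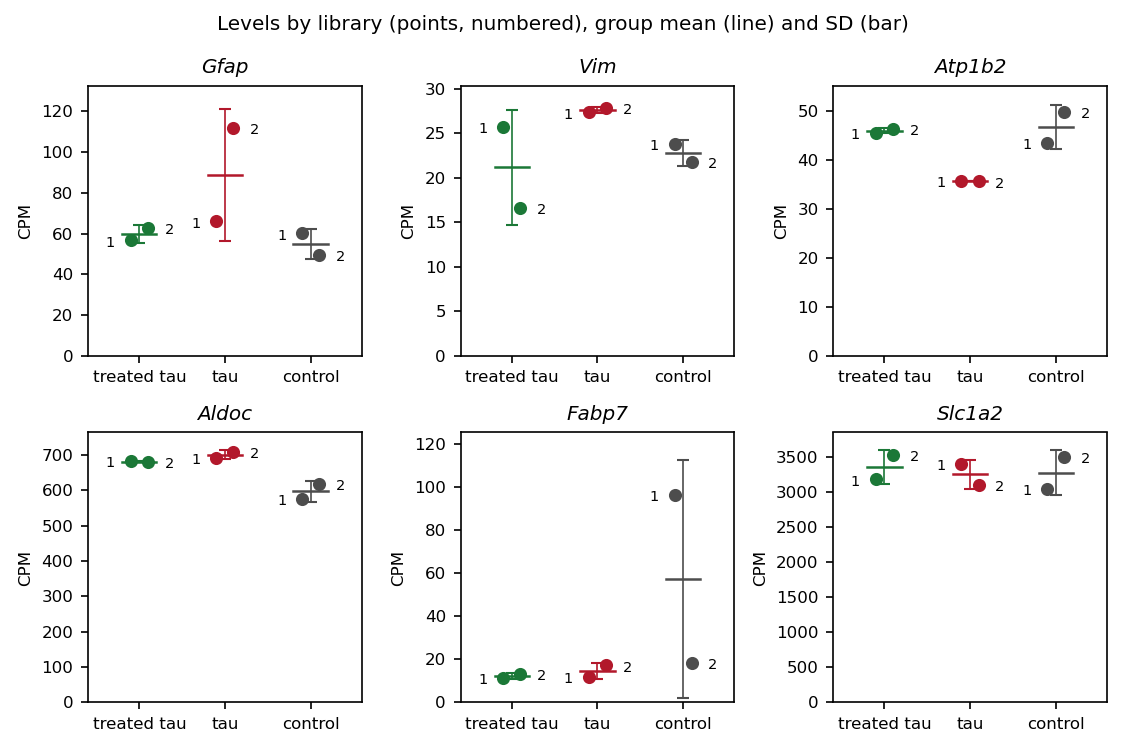
CPM of 6 astrocyte genes by library (numbered points), with the group mean (line) and SD (bar, n = 2). Gfap at 111.8 CPM in tau 2 and Fabp7 at 96.7 CPM in the library labelled control 1 are single high libraries, whereas both tau libraries are low for Atp1b2 and both control libraries low for Aldoc.

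Among the regulators and receptors, Sox9 was the one past an unadjusted p of 0.05 in any comparison. Sox9, a transcription factor that directs glial fate and marks adult astrocytes, was at 10.2 and 8.87 CPM in treated tau, 11.8 and 11.3 CPM in tau, and 11.4 and 15.0 CPM in control. Both treated tau libraries lay below the other 4, with a log2 fold change of -0.27 ± 0.17 against tau (adjusted p = 0.641) and -0.46 ± 0.17 against control (adjusted p = 0.205), and the second was -0.24 without control 2. Ntsr2, a neurotensin receptor, was at 59.3 and 56.9 CPM in treated tau, 46.5 and 55.6 CPM in tau, and 58.6 and 54.6 CPM in control. Tau 1 was the low library, and the log2 fold change in treated tau against tau was 0.19 ± 0.11 (adjusted p = 0.563). Fgfr3, a fibroblast growth factor receptor, was between 81.2 and 97.6 CPM, Gpr37l1, an orphan receptor, between 146 and 165 CPM, and Id3, an inhibitor of helix-loop-helix factors, between 12.5 and 15.0 CPM. Fgfr3 shares 11.6% of its exonic 50-base words with other genes, most often with G630022F23Rik on the opposite strand, so its value is uncertain.

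Of the secreted, matrix and calcium-binding genes, all PS19 libraries lay above control for Sparcl1 and below it for Bcan. Sparcl1 encodes hevin, a secreted protein that promotes synapse formation, and was at 2198 and 2179 CPM in treated tau, 2227 and 2143 CPM in tau, and 1961 and 1928 CPM in control. No PS19 library overlapped with control, and the log2 fold change was 0.17 ± 0.060 in treated tau (adjusted p = 0.189) and 0.17 ± 0.060 in tau (adjusted p = 0.451). Without the library labelled control 1 these were 0.19 and 0.18. Bcan, the matrix proteoglycan brevican, which oligodendrocyte precursors also express, was at 109 and 100.1 CPM in treated tau, 107 and 91.5 CPM in tau, and 118 and 115 CPM in control, and tau 2 was the low library. S100b was between 112 and 135 CPM, with tau 2 the high one, and oligodendrocytes express it too.

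Of the 9 tested reactive genes, 2 were positive and 7 negative in treated tau against tau, with a median log2 fold change of -0.18. The counts were also 2 and 7 in treated tau against control, with a median of -0.094, and in tau against control 5 were positive and 4 negative, with a median of 0.032. Their summed CPM was 298.9 and 263.6 in treated tau, 303.6 and 342.4 in tau, and 270.9 and 257.5 in control. Gfap (mm10 chr11:102887336-102900912, minus strand), the filament gene most used to mark reactivity, was at 56.6 and 62.9 CPM in treated tau, 66.1 and 111.8 CPM in tau, and 60.1 and 49.5 CPM in control. Both tau libraries lay above the other 4, tau 1 by a small margin, and treated tau and control overlapped. The log2 fold change was -0.56 ± 0.20 in treated tau against tau (adjusted p = 0.264), 0.12 ± 0.21 in treated tau against control (adjusted p = 0.823) and 0.69 ± 0.21 in tau against control (adjusted p = 0.441).

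The size of the Gfap difference depended on tau 2. Without tau 2 it was -0.14 in treated tau against tau (adjusted p = 0.850) and 0.27 in tau against control (adjusted p = 0.688), and without tau 1 it was -0.90 (adjusted p = 0.0135) and 1.03 (adjusted p = 0.0956). Tau 2 also held the most oligodendrocyte and striatal marker RNA, with Mbp at 2000 CPM against 537 to 1070 CPM and Drd2 at 5.10 CPM against 0.969 to 2.58 CPM in the other 5 libraries. The part of such tissue in the Gfap value was not tested. With tau 2 and the library labelled control 1 both left out, the values were -0.14 in treated tau against tau (adjusted p = 0.701) and 0.42 in tau against control (adjusted p = 0.223).

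Vim, the second filament gene, which vessel and meningeal cells also express, was at 25.7 and 16.6 CPM in treated tau, 27.4 and 27.9 CPM in tau, and 23.8 and 21.8 CPM in control. Treated tau 2 was the low library. Its log2 fold change was -0.37 ± 0.18 in treated tau against tau (adjusted p = 0.475), -0.094 ± 0.18 in treated tau against control (adjusted p = 0.849) and 0.28 ± 0.18 in tau against control (adjusted p = 0.610), and without treated tau 2 the first was -0.098. Serpina3n, a secreted protease inhibitor strongly induced in many reactive states, was at 13.8 and 12.3 CPM in treated tau, 13.1 and 15.4 CPM in tau, and 16.4 and 10.5 CPM in control. The 2 control libraries spanned the other 4. The log2 fold changes were -0.11 ± 0.21 in treated tau against tau (adjusted p = 0.923), -0.040 ± 0.20 in treated tau against control (adjusted p = 0.947) and 0.072 ± 0.21 in tau against control (adjusted p = 0.931). Of its exonic 50-base words, 6.90% also occur in other genes, most often in the pseudogene Serpina3e-ps, which makes its value uncertain.

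Cd44, a hyaluronan receptor, was at 3.07 and 3.54 CPM in treated tau, 7.39 and 1.95 CPM in tau, and 4.81 and 7.88 CPM in control, from 34 counts in tau 2 to 201 in control 2. The tau libraries spanned nearly its whole range. The log2 fold change was -0.62 ± 0.47 in treated tau against tau (adjusted p = 0.721), -0.95 ± 0.44 in treated tau against control (adjusted p = 0.331) and -0.33 ± 0.44 in tau against control (adjusted p = 0.809). Without both the library labelled control 1 and tau 2, an alternative added after the data were seen, the first 2 were -1.17 and -1.26. Each then rests on a lone reference library, tau 1 at 7.39 CPM and control 2 at 7.88 CPM, the higher library of its group. Without tau 1 the first value was 0.75. Meningeal and fibroblast markers, cells that also express Cd44, summed to 74.9 and 44.3 CPM in treated tau, 80.6 and 42.6 CPM in tau, and 51.2 and 81.3 CPM in control, and their part was not tested.

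S1pr1, a sphingosine phosphate receptor of astrocytes and endothelium, was at 172 and 147 CPM in treated tau, 162 and 162 CPM in tau, and 138 and 142 CPM in control. The PS19 libraries lay above control, with a log2 fold change of 0.19 ± 0.088 in treated tau (adjusted p = 0.338) and 0.21 ± 0.089 in tau (adjusted p = 0.486). Cp, the ferroxidase ceruloplasmin, was between 13.9 and 20.1 CPM, Osmr, the oncostatin M receptor subunit, between 3.80 and 6.87 CPM, and Aspg, an asparaginase gene, between 2.43 and 3.87 CPM. Their groups overlapped in both comparisons with control. In treated tau against tau, Osmr was lower without overlap, as were 20.1% of all genes, at -0.34 ± 0.28 (adjusted p = 0.755), while Cp and Aspg overlapped. Timp1, an inhibitor of matrix metalloproteinases and in many injury models a strongly induced gene, had 12 and 8 counts in treated tau, 7 and 5 in tau, and 12 and 12 in control. At this depth the 95% intervals of Timp1 were wide, and each held 0. On the log2 scale they ran from -1.10 to 1.56 in treated tau against tau and from -1.63 to 0.59 in treated tau against control. The interval in tau against control ran from -2.02 to 0.52.

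Further genes of astrocytes and of their reactive states gave no call in any comparison. Of 20 further astrocyte genes, all tested, 0 were called, and the median log2 fold change was -0.014 in treated tau against tau, 0.020 in treated tau against control and 0.021 in tau against control. Clu, the secreted chaperone clusterin, averaged 530.3 ± 4.6 CPM in treated tau, 545.1 ± 5.7 CPM in tau and 458.3 ± 20.1 CPM in control (SD, n = 2 each), with log2 fold changes against control of 0.21 ± 0.067 (adjusted p = 0.146) and 0.25 ± 0.068 (adjusted p = 0.441). Slc6a11, a GABA transporter, averaged 80.04 ± 3.4 CPM in treated tau, 82.8 ± 1.6 CPM in tau and 113 ± 34.6 CPM in control, and its log2 fold changes against control were -0.50 ± 0.17 (adjusted p = 0.161) and -0.45 ± 0.17 (adjusted p = 0.452). The library labelled control 1 set the size of these Slc6a11 values. Without it they were -0.14 (adjusted p = 0.581) and -0.0997 (adjusted p = 0.743), and without control 2 they were -0.78 (adjusted p = 0.00183) and -0.74 (adjusted p = 0.0125), calls that rest on that 1 control library. In treated tau against tau the 2 smallest p-values of that list belonged to Cbs, an enzyme of sulfur amino acid metabolism, at -0.35 ± 0.15 (adjusted p = 0.386), and Ttyh1, a membrane protein, at 0.14 ± 0.077 (adjusted p = 0.573).

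Of 12 genes of the A1-type reactive list, known from mouse astrocytes after inflammatory challenge, all were tested and 0 called. In treated tau against tau 11 of 12 were negative, with a median log2 fold change of -0.18, and 1 of 12 (8.33%) was past an unadjusted p of 0.05, beside 12% of all genes. Treated tau 2 was the lowest of the 6 libraries, the median log2 deviation of the list being 0.10 in treated tau 1 and -0.32 in treated tau 2, against 0.16 in tau 1 and 0.087 in tau 2. H2-T23, a class I histocompatibility gene, averaged 9.10 ± 3.70 CPM in treated tau, 15.5 ± 2.3 CPM in tau and 15.8 ± 2.6 CPM in control, with a log2 fold change of -0.73 ± 0.25 in treated tau against tau (adjusted p = 0.229) and -0.76 ± 0.25 against control (adjusted p = 0.146). H2-D1, of the same class, averaged 11.8 ± 8.8 CPM in treated tau and 21.9 ± 0.13 CPM in tau, at -0.86 ± 0.40 (adjusted p = 0.440). Without treated tau 1, H2-T23 was at -1.24 (adjusted p = 0.0426) and H2-D1 at -1.99 (adjusted p = 0.011) in treated tau against tau, calls that rest on treated tau 2 alone. In tau against control, Fkbp5, a chaperone gene induced by glucocorticoids, was at 0.43 ± 0.13 (adjusted p = 0.441), and Iigp1, an interferon-induced GTPase, was at -0.95 ± 0.35 (adjusted p = 0.452) and at -0.80 ± 0.32 in treated tau against control (adjusted p = 0.240). Without the library labelled control 1 the Iigp1 values were -0.57 (adjusted p = 0.621) and -0.43 (adjusted p = 0.661).

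Of the 12 A2-type genes, known from mouse astrocytes after ischaemia, 9 were tested and 0 called, with median log2 fold changes of -0.086 in treated tau against tau, 0.073 in treated tau against control and 0.19 in tau against control. Ptgs2, an inducible prostaglandin synthase that cortical neurons also express, was at 0.45 ± 0.21 in treated tau (adjusted p = 0.349) and 0.48 ± 0.22 in tau (adjusted p = 0.506) against control, and Emp1 at 0.62 ± 0.31 (adjusted p = 0.380) and 0.60 ± 0.34 (adjusted p = 0.562). In treated tau against tau, Cd109 was at -0.36 ± 0.38 (adjusted p = 0.825) and Tm4sf1 at -0.16 ± 0.21 (adjusted p = 0.875). Of 4 further pan-reactive genes, 2 were tested and 0 called. Hspb1, a small heat shock protein gene, averaged 1.99 ± 0.62 CPM in treated tau, 0.931 ± 0.34 CPM in tau and 1.53 ± 0.063 CPM in control, with a log2 fold change of 0.99 ± 0.41 in treated tau against tau (adjusted p = 0.351), 0.34 ± 0.35 in treated tau against control (adjusted p = 0.694) and -0.65 ± 0.44 in tau against control (adjusted p = 0.616). S1pr3 was at -0.013 ± 0.19 in treated tau against tau (adjusted p = 0.994), -0.17 ± 0.18 in treated tau against control (adjusted p = 0.703) and -0.16 ± 0.19 in tau against control (adjusted p = 0.786).

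The STAT3 pathway, which drives Gfap in reactive astrocytes, had 11 of 14 genes tested and 0 called, with median log2 fold changes of 0.039 in treated tau against tau, 0.044 in treated tau against control and 0.010 in tau against control. Jak1, a kinase of the pathway, was at 0.15 ± 0.069 in treated tau (adjusted p = 0.336) and 0.12 ± 0.069 in tau (adjusted p = 0.564) against control, and Jak2, another, at 0.16 ± 0.092 in treated tau (adjusted p = 0.424). Il6ra, a cytokine receptor gene, was at -0.34 ± 0.30 in treated tau against tau (adjusted p = 0.766) and 0.54 ± 0.31 in tau against control (adjusted p = 0.571), with libraries that overlapped in both. The cytokine gene Lif was near its limit of detection, with means of 0.632 CPM in treated tau and 0.386 CPM in tau (log2 fold change 0.74 ± 0.55, adjusted p = 0.714).

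**Figure D5:**
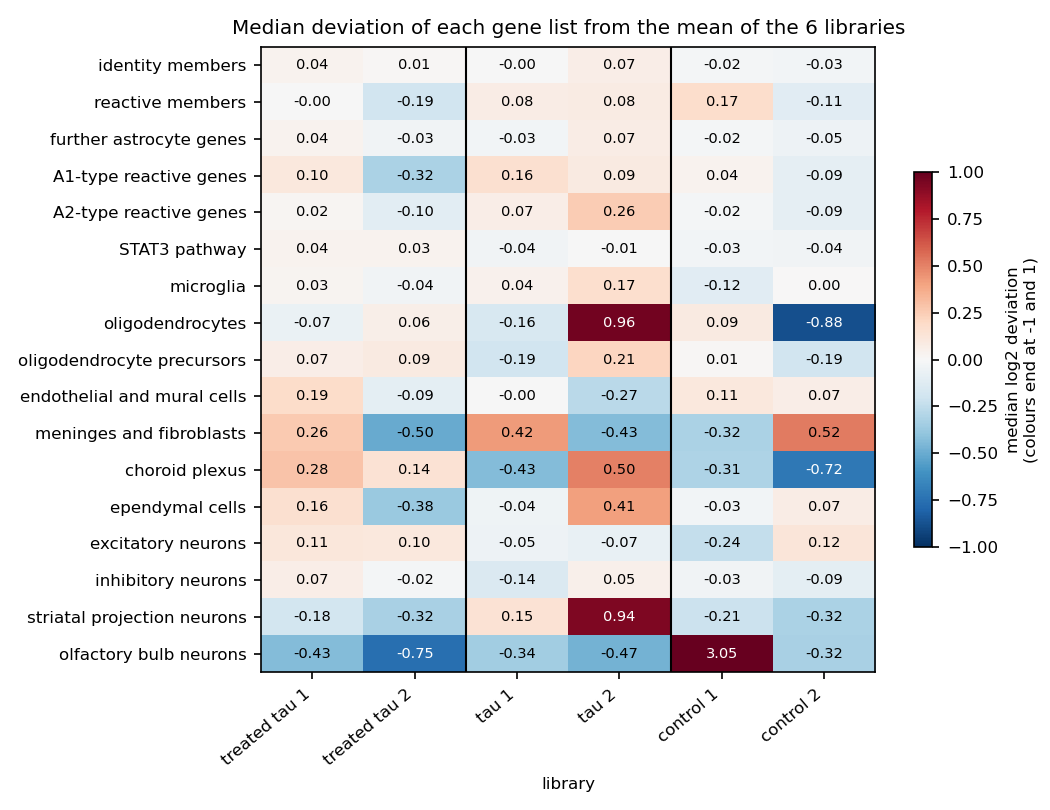
Median log2 deviation of each gene list from the mean of the 6 libraries (colour and printed value), with astrocyte lists in the upper rows and lists for other cell types below. The 23 identity genes stay between -0.03 and 0.07, while olfactory bulb neuron genes reach 3.05 in the library labelled control 1 and oligodendrocyte genes 0.96 in tau 2 and -0.88 in control 2.

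The 23 members outside the reactive group had median deviations between -0.03 and 0.07 over the 6 libraries, and the 20 further astrocyte genes between -0.05 and 0.07. Oligodendrocyte genes ran from -0.88 in control 2 to 0.96 in tau 2, and meningeal and fibroblast genes from -0.50 in treated tau 2 to 0.52 in control 2. Ttr, the defining choroid plexus marker, was near 0 throughout, at 1.93 and 0 CPM in treated tau, 0.0782 and 1.38 CPM in tau and 0 in both control libraries. Microglial genes, whose products drive the A1-type state in mice, summed to 405.9 and 393.2 CPM in treated tau, 409 and 437.5 CPM in tau, and 362.2 and 394.4 CPM in control, with 0 of 12 called in any comparison.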

How the data were processed

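The authors deposited whole-number read counts per gene symbol, 1 table per library, not normalized. Per the labels' protocols, ribosomal RNA was depleted, libraries were strand-specific (TruSeq), adapters were removed by Cutadapt, and TopHat2 aligned the reads to RefSeq mRNAs of mouse. SAMtools, featureCounts, edgeR and the build mm10 appear in the submitters' processing notes. Their versions, whether counting used strand, and how multiply aligned reads were handled: not given in the sources used here.

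Of 53640 shared symbols, those passing filterByExpr at a minimum count of 10 entered 1 model of all 6 libraries with TMM scaling and edgeR's quasi-likelihood test (edgeR 4.0.16, R 4.3.3). P-values were adjusted by Benjamini-Hochberg over 20694 genes, and a call is an adjusted p under 0.05. Intervals are 95% intervals from the fit with 3 residual degrees of freedom before moderation, and cover no error shared by both duplicates. DESeq2 1.42.0 and limma 3.58.1 served as alternatives. Library numbers follow the sample titles; file headers give 4 of them another number.

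Gene positions and exon lengths come from GENCODE M21 (mm10) and promoter windows from RefSeq. Members and lists were chosen with earlier results of these data known. Folds, errors and adjusted p are given for Gfap, Vim, Serpina3n, Aqp4, Slc1a2, Slc1a3, Glul and Gja1, for the 5 members with the smallest p in each comparison, and for the 2 smallest in each pathway list. Cd44, S1pr1 and values beyond that rule were added after their values were seen.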

Additional observations from a re-analysis of the deposited data

How the results depend on the processing

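With 2 libraries a group, 1 library can set a value. Prnp in the library labelled control 1 goes against its label, so differences from control are uncertain. Differences between treated tau and tau are uncertain too, since these groups also differ in sex and in the symbols their tables list. In tau against control the genes called numbered 0, or 55 by DESeq2, 130 without both the library labelled control 1 and tau 2 (chosen after seeing the data), and 0 to 98 when each library was left out in turn. Calls in treated tau against tau numbered 779, or 45 among protein-coding genes only and 355 to 840 by leaving out 1 library. In treated tau against control they numbered 873, or 40 among protein-coding genes only and 494 to 816 by leaving out 1 library. Astrocyte genes called numbered 0, with 0 to 1 by leaving out 1 library in each comparison (Fabp7 without control 2, Gfap without tau 1), and 1 (Cd44) in both treated tau comparisons without both the library labelled control 1 and tau 2.

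Over all genes, the deviations of libraries with the same number from their group means were nearly uncorrelated (correlations 0.0733, -0.00799 and 0.0101). This gives no sign of pairing by number, but it cannot exclude pairing, since single libraries also differ in sex and in cell type markers. With the replicate number as a block, 709, 796 and 0 genes were called in treated tau against tau, treated tau against control and tau against control, and 0 astrocyte genes in each.

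Of 351 log2 fold changes recomputed for named genes in treated tau against tau, 323 kept their direction and side of the threshold, as did 371 of 384 in treated tau against control and 419 of 432 in tau against control. Reversed signs belonged to values near 0, or to fits without 1 library or without both the library labelled control 1 and tau 2. In those fits values not near 0 reversed too. Il6ra, for example, was at -0.34 in treated tau against tau and 0.54 in tau against control with all libraries. In treated tau against tau, Gja1 was at 0.014 with no filter, 0.00042 by limma-voom and 0.0068 among protein-coding genes, and S1pr3 at 0.00089 with no filter, 0.0069 by DESeq2 and 0.0066 by the legacy quasi-likelihood fit. Without both the library labelled control 1 and tau 2, treated tau against tau gave 0.057 for Gja1, -0.020 for Slc1a2, 0.092 for Glul, 0.0015 for Serpina3n and 0.050 for Il6ra, treated tau against control gave -0.058 for Slc1a2 and 0.32 for Serpina3n, and tau against control gave 0.11 for S1pr3 and -0.042 for Il6ra. Leaving out 1 library in treated tau against tau gave -0.029 to 0.12 for Slc1a2, -0.092 to 0.087 for Gja1, -0.13 to 0.095 for Glul, -0.24 to 0.0044 for Serpina3n, -1.17 to 0.75 for Cd44, -0.48 to 0.070 for Tm4sf1, -0.16 to 0.21 for S1pr3 and -0.73 to 0.054 for Il6ra. In treated tau against control it gave -0.057 to 0.14 for Slc1a2, -0.020 to 0.16 for Gja1, -0.0034 to 0.27 for Gfap, -0.45 to 0.18 for Vim and -0.32 to 0.33 for Serpina3n. In tau against control it gave -0.10 to 0.094 for Slc1a2, -0.019 to 0.12 for Slc1a3, -0.11 to 0.042 for Aqp4, -0.22 to 0.44 for Serpina3n and -1.70 to 0.22 for Cd44. The causes were not tested. A fit without 1 library leaves a group with a lone library, assumed to vary like the others. The fit without both the library labelled control 1 and tau 2 leaves a lone library in tau and in control. Timp1 and Steap4 had few counts in each library.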

Other observations

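Among the marker lists of other cell types, 1 of 12 endothelial and mural genes and 3 of 12 striatal neuron genes were called in treated tau against tau. These calls come from the fit of all genes, of which 3.76% were called there. A separate fit of protein-coding genes alone called 0.305%, and whether these marker genes were among them is not given here. Cldn5, a tight junction gene of the vessels that astrocyte endfeet surround, was at 20.0 and 22.7 CPM in treated tau, 12.5 and 10.3 CPM in tau, and 26.1 and 18.6 CPM in control, and rose by 0.88 ± 0.19 on the log2 scale (adjusted p = 0.0286). Both tau libraries lay below the other 4, as they did for Atp1b2. Pecam1, the other defining endothelial marker, was at 18.7 and 12.9 CPM in treated tau, 16.3 and 17.3 CPM in tau, and 17.3 and 17.2 CPM in control, with groups that overlapped. The other 3 were the striatal neuron genes Drd2, Rgs9 and Gpr6, at -1.84 ± 0.39 (adjusted p = 0.0308), -1.18 ± 0.27 (adjusted p = 0.0469) and -2.20 ± 0.47 (adjusted p = 0.0315), of which Drd2 was at 1.05 and 0.969 CPM in treated tau, 2.58 and 5.10 CPM in tau, and 1.34 and 1.25 CPM in control. Tau 2 was the highest library for the striatal list. The list's median log2 deviation was -0.18 and -0.32 in treated tau, 0.15 and 0.94 in tau, and -0.21 and -0.32 in control. Treated tau and tau also differ in sex, as Xist and Ddx3y show above.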
